A study of Mus musculus with 4 samples.

Results

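Enzymes that make retinoic acid, or that return its precursor to retinol, were followed by gene symbol through spatial transcriptomes of mouse brain organoids. The 5 genes were Rdh10, Aldh1a1, Aldh1a2, Aldh1a3 and Dhrs3, out of 22218 genes listed in at least 1 section, and all 5 were listed in each of the 4 sections. The organoids had been grown for 3 months from 1 mouse embryonic stem cell line of CARLIN/Cas9 genotype, so every group carried that genotype. All had been kept from day 6 in a maturation medium made with B27 lacking vitamin A, and differed in what was added from day 9 on. The VitaminA section came from organoids given 2% B27 with vitamin A. The ATRA section came from organoids given all-trans retinoic acid at 1 µM, and the BMS753 section from organoids given BMS753, an agonist of the retinoic acid receptor RARα, at 1 µM. The BMS961+BMS641 section came from organoids given BMS961, an RARγ agonist, together with BMS641, an RARβ agonist, at 0.1 µM. Sections were laid on barcoded poly-T arrays, where each spot is a small region that can hold several cells. Each treatment had 1 section, and because several organoids shared a mold, a section need not be of a single organoid. Differences between treatments therefore have no replicate check, and treatment, section and organoid cannot be told apart.

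Retinoic acid is made from retinol, the circulating form of vitamin A, in a pair of oxidations. RDH10 carries out the first, from retinol to retinaldehyde, and the aldehyde dehydrogenases ALDH1A1, ALDH1A2 and ALDH1A3 carry out the second, from retinaldehyde to retinoic acid. DHRS3 works against this flow by reducing retinaldehyde back to retinol, and in many tissues retinoic acid raises the expression of its gene. In the developing nervous system the aldehyde dehydrogenases have separate territories. ALDH1A2 makes retinoic acid in the mesoderm beside the spinal cord and in the meninges, ALDH1A1 is found in the dorsal retina and in dopaminergic neurons of the midbrain, and ALDH1A3 is found in the ventral retina.

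Promoter sequences are shown because Aldh1a2 and Dhrs3 differed most between the sections, while Aldh1a1 differed little. RefSeq promoter entries on GRCm38.p6 matched 3 of the 5 genes, with 6 windows, while Aldh1a3 and Rdh10 are only named here. The 250 bases before the start are given for Aldh1a2 at chr9:71215539-71215788, for the second Aldh1a1 start at chr19:20601718-20601967 and for the first Dhrs3 start at chr4:144892577-144892826, all on the + strand. Capitals mark ATGCAAAT, the octamer bound by POU factors, and in Aldh1a1 also the overlapping TGACCC, the reverse complement of GGGTCA.
Aldh1a2: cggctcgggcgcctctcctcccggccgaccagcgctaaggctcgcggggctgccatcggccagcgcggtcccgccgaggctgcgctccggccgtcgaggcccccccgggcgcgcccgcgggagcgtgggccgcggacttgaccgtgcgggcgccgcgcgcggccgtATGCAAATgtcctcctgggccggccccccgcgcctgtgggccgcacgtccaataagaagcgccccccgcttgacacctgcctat
Aldh1a1: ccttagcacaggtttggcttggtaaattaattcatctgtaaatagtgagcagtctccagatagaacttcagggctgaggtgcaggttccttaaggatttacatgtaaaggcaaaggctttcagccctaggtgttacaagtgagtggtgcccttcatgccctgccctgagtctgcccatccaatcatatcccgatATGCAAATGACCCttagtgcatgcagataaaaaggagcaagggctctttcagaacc
Dhrs3: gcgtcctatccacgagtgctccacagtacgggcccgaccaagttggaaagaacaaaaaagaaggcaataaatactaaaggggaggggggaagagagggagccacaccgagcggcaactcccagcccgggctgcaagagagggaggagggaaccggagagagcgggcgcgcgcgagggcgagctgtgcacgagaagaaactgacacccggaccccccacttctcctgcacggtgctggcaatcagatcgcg
The octamer was looked for after these sequences had been read, on both strands, and stood in 526 of 32851 RefSeq promoter windows of this length, or 1.60%. It began 84 bases before the start in Aldh1a2 and 56 bases before the second start in Aldh1a1. The first Aldh1a1 window, which is not printed, held no octamer, none of the hexamers below and no CCAAT. The hexamer AGGTCA, from which retinoic acid response elements are built, was looked for on both strands together with its variants, which were AGTTCA as well as GGGTCA and also GGTTCA. At least 1 of these hexamers stood in 38.6% of all windows, including the second Aldh1a1 window but not the Aldh1a2 window or the first Dhrs3 window. Direct repeats of these hexamers spaced by 1, 2 or 5 bases stood in 0.164%, 0.174% and 0.0883% of all windows and in none of the 3 windows printed. CCAAT, held by 33.8% of all windows, began 36 bases before the start in Aldh1a2 and 72 bases before it in Aldh1a1. The last 100 bases of the Aldh1a1 window matched those of its neighbour and close copy Aldh1a7 at 94 positions, and those of Aldh1a2 at 20 positions. The windows also differed in base composition, with 77.6% G and C before Aldh1a2, 61.6% before Dhrs3 and 46.4% before Aldh1a1.

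The tables held 552 spots in the VitaminA section, 593 in the ATRA section, 469 in the BMS753 section and 365 in the BMS961+BMS641 section. The values had been quantile normalised within each section, and read counts and sequencing depth per spot are unknown. A level below is a gene's mean signal over all spots, in ppm, its parts per 1000000 of the summed level of all genes in the section. In every spot the zeros and the lowest run of positive values were 1 tied class split by the order of the rows, so a spot counts as holding a gene only where the gene stood above that class. The median number of genes above it was 4659, 3388, 3330 and 4462 per spot in the 4 sections in the same order. Aldh1a3 and Rdh10 lie late in the tables and took part of their signal from the lowest class, from 0.51% to 23.0% and from 1.43% to 27.7% of it by section, and the other enzymes took none. Their levels are therefore also given with that class set to 0. As a measure of spread within a section, levels were recomputed in its 4 spatial quadrants, and these are not replicates of a treatment. Since spots are not sorted cells, fewer cells of a type and less RNA per cell cannot be told apart.

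Aldh1a2, the main retinoic acid synthesising enzyme of the early embryo, was spread over nearly the whole VitaminA section and over a minority of spots in each ligand section. It stood above the lowest class in 519 of 552 spots with vitamin A, a share of 94.0% with an exact 95% binomial interval of 91.7% to 95.8%. The share was 25.6% (22.2% to 29.4%) with ATRA, 35.0% (30.7% to 39.5%) with BMS753 and 47.4% (42.2% to 52.7%) with BMS961+BMS641. These Clopper-Pearson intervals cover counting error over spots only, and neighbouring spots are not independent. The level of Aldh1a2 was 296 ppm in the VitaminA section, 16.2 ppm in the ATRA section, 41.1 ppm in the BMS753 section and 28.5 ppm in the BMS961+BMS641 section. Its quadrants ranged from 278 to 307 ppm with vitamin A, from 14.5 to 18.4 ppm with ATRA, from 31.7 to 56.2 ppm with BMS753 and from 16.8 to 36.0 ppm with BMS961+BMS641. The VitaminA quadrants were even and all far above every other quadrant, and the BMS961+BMS641 quadrants overlapped both of the other ligand sections. With the lowest class at 0 the levels were 313, 17.6, 47.7 and 30.6 ppm in the same order.

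**Figure D1:**
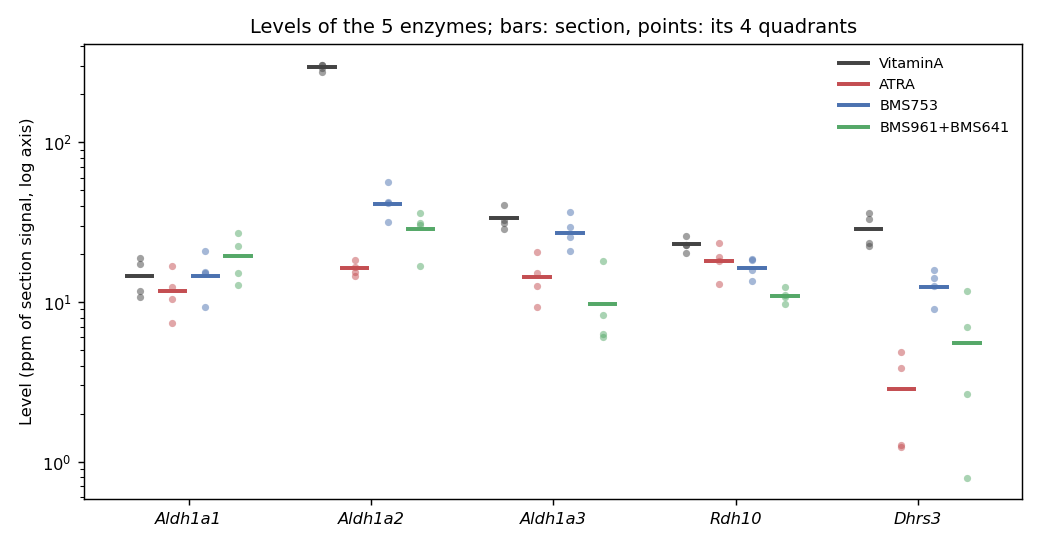
Level of each enzyme (ppm of the section's signal, log axis) in the 4 sections, with a bar for the section and points for its 4 quadrants. Aldh1a2 with vitamin A, at 278 to 307 ppm, stands apart from all other quadrants, while the quadrants of Aldh1a1 overlap in every pair of sections.

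The high Aldh1a2 level was not the work of a few spots. The median spot of the VitaminA section held Aldh1a2 at 283 ppm of its signal, and the median spot of each ligand section held it at 0. The 5% of spots with the most Aldh1a2 gave 17.4% of its signal with vitamin A, and 57.7%, 51.7% and 42.5% with ATRA, BMS753 and BMS961+BMS641. Among the spots that held the gene, the median was 291 ppm with vitamin A against 58.6, 91.9 and 57.3 ppm in the ligand sections, so the gene was both in more spots and at a higher value where present. The brightest single spot held 1052 ppm with vitamin A, 286 ppm with ATRA, 769 ppm with BMS753 and 244 ppm with BMS961+BMS641. Against genes of like genomic span, within 0.25 on the log2 scale, the share of Aldh1a2 stood at the 98.0th percentile in the VitaminA section and at the 43.5th, 62.3rd and 67.3rd in the ligand sections. Aldh1a2 was 1 of 60 genes held by at least 90% of VitaminA spots and by at most 50% of spots in each other section, out of 19783 genes listed in all 4. These cut-offs lie close to the shares of Aldh1a2 itself, so its place among the 60 describes those shares and is no test. The same count was 72 genes for the ATRA section, 0 for BMS753 and 108 for BMS961+BMS641. The mark of 90% alone was reached by 617 genes with vitamin A, 410 with ATRA, 143 with BMS753 and 632 with BMS961+BMS641.

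**Figure D2:**
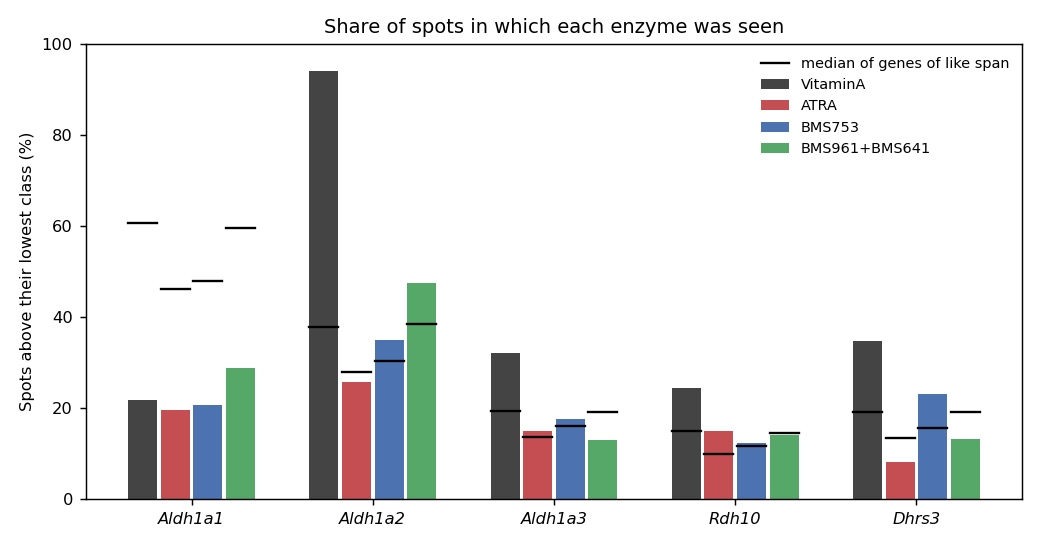
Percent of spots in which each enzyme stood above the lowest class, by section, with a black line at the median of genes of like genomic span. Aldh1a2 reaches 94.0% with vitamin A, and Aldh1a1, with its span taken as 150.9 kb, lies below the line in every section.

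Dhrs3, the enzyme that returns retinaldehyde to retinol, was also highest with vitamin A and was lowest with ATRA. Its level was 28.8 ppm in the VitaminA section, 2.86 ppm in the ATRA section, 12.4 ppm in the BMS753 section and 5.53 ppm in the BMS961+BMS641 section. The quadrants ranged from 22.6 to 36.1 ppm with vitamin A, from 1.24 to 4.86 ppm with ATRA, from 9.00 to 15.9 ppm with BMS753 and from 0.79 to 11.7 ppm with BMS961+BMS641. The VitaminA quadrants lay above all others and the BMS753 quadrants above all ATRA quadrants, whereas the BMS961+BMS641 quadrants reached into both other ligand sections. Dhrs3 was held by 34.8% of spots with vitamin A (30.8% to 38.9%), 8.09% with ATRA (6.03% to 10.6%), 23.0% with BMS753 (19.3% to 27.1%) and 13.2% with BMS961+BMS641 (9.86% to 17.1%). Unlike that of Aldh1a2, its signal was uneven even with vitamin A, where 5% of spots gave 55.4% of it and the brightest spot held 1148 ppm. With ATRA and with BMS961+BMS641, 5% of spots gave 95.3% and 92.7% of its signal. Its level in those sections therefore rests on few spots, 48 in each.

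Aldh1a3, the aldehyde dehydrogenase of the ventral retina, varied less. Its level was 33.4 ppm with vitamin A, 14.3 ppm with ATRA, 27.1 ppm with BMS753 and 9.68 ppm with BMS961+BMS641, or 35.2, 13.4, 27.7 and 8.00 ppm with the lowest class at 0. Quadrants ranged from 28.8 to 40.4 ppm with vitamin A, from 9.26 to 20.5 ppm with ATRA, from 20.8 to 36.9 ppm with BMS753 and from 6.06 to 18.1 ppm with BMS961+BMS641. The VitaminA and BMS753 quadrants overlapped, as did those of ATRA and BMS961+BMS641, and the first pair lay above the second. By share of spots BMS753 did not stand with vitamin A, since the gene was held by 32.1% of spots with vitamin A (28.2% to 36.1%) and by 15.0%, 17.5% and 12.9% with ATRA, BMS753 and BMS961+BMS641.

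Rdh10, which makes the retinaldehyde that the ALDH1A enzymes use, was highest with vitamin A and lowest with BMS961+BMS641. Its level was 22.9 ppm with vitamin A, 18.2 ppm with ATRA, 16.3 ppm with BMS753 and 11 ppm with BMS961+BMS641, or 24.0, 17.1, 13.7 and 8.87 ppm with the lowest class at 0. The quadrants ranged from 20.4 to 26.0 ppm, 13.1 to 23.3 ppm, 13.6 to 18.5 ppm and 9.79 to 12.5 ppm in the same order. The BMS961+BMS641 quadrants lay below all others, the VitaminA quadrants lay above those of BMS753, and the ATRA quadrants overlapped both VitaminA and BMS753. Rdh10 was held by 24.5% of spots with vitamin A (20.9% to 28.3%) and by 14.8%, 12.4% and 14.0% of spots in the ligand sections.

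Aldh1a1, the enzyme of the dorsal retina and of dopaminergic neurons, did not separate the sections. Its level was 14.7 ppm with vitamin A, 11.7 ppm with ATRA, 14.6 ppm with BMS753 and 19.4 ppm with BMS961+BMS641. The quadrants, from 10.7 to 19.0, 7.35 to 16.7, 9.33 to 20.7 and 12.7 to 27.1 ppm, overlapped between every pair of sections. It was held by 21.7%, 19.6%, 20.7% and 28.8% of spots. Among genes of like genomic span these shares stood at the 1.51st, 4.08th, 2.12th and 3.33rd percentile, with its span taken as 150.9 kb. The windows before its first and second starts begin far apart, at chr19:20492333 and chr19:20601718. The shares were not ranked for a span counted from the second start, so whether they are low depends on the span used. Reads of Aldh1a1 could be split with its close copy Aldh1a7, and how such reads were counted is not given in the sources used here. Aldh1a7 stood at 5.11, 4.76, 6.21 and 3.84 ppm in the same order and was held by 12.5%, 12.5%, 12.4% and 11.5% of spots.

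Against vitamin A, the 3 ligand sections shared lower Aldh1a2 and lower Dhrs3. All 3 comparisons use the same VitaminA section, so they are not independent of each other. Ratios are of levels after adding 1 ppm, among genes that reached 5 ppm in at least 1 of both sections, and 2-fold is used as a mark of size, not as a test. All 5 enzymes passed that minimum in each of the 6 pairs of sections. With ATRA, 3 of the 5 enzymes were at least 2-fold lower and 0 higher, where 22.9% of the 14794 genes compared were at least 2-fold lower and 8.60% higher. Aldh1a2 was 17.2-fold lower (log2 ratio -4.10), Dhrs3 was 7.73-fold lower (-2.95) and Aldh1a3 was 2.25-fold lower (-1.17), while Rdh10 at -0.32 and Aldh1a1 at -0.30 were near the median of all genes at -0.33. After centring on that median Aldh1a3, at -0.84, no longer reached 2-fold. Over the 16 pairs of quadrants the Aldh1a2 ratio ran from -4.31 to -3.85, that of Dhrs3 from -4.05 to -2.01 and that of Aldh1a3 from -2.01 to -0.47. Of all genes compared, 36.1% had 4 ATRA quadrants below the 4 VitaminA quadrants, as these 3 enzymes did. Only 0.74% of genes had a lower ratio than Aldh1a2, and 2.18% had a lower one than Dhrs3.

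With BMS753, 2 of the 5 enzymes were at least 2-fold lower than with vitamin A and 0 higher, beside 10.0% and 17.7% of all 15676 genes compared. Aldh1a2 was 7.04-fold lower (log2 ratio -2.82, quadrant pairs -3.24 to -2.29) and Dhrs3 was 2.22-fold lower (-1.15, -1.89 to -0.48), against a median of 0.31 over all genes. Rdh10, at -0.47, was the other enzyme whose quadrants lay wholly below, which 14.9% of all genes did. Aldh1a3 at -0.29 and Aldh1a1 at -0.00 had overlapping quadrants. The Dhrs3 difference depended on how signal was averaged, and by share of spots it was less than 2-fold.

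With BMS961+BMS641, at a dose below that of the other ligands, 3 of the 5 enzymes were at least 2-fold lower than with vitamin A and 0 higher, beside 19.9% and 10.2% of all 14959 genes compared. Aldh1a2 was 10.1-fold lower (log2 ratio -3.33, quadrant pairs -4.11 to -2.92), Dhrs3 was 4.56-fold lower (-2.19, -4.38 to -0.89) and Aldh1a3 was 3.22-fold lower (-1.69, -2.55 to -0.64). Rdh10 lay just short of 2-fold, at -0.998, and at -1.34 with the lowest class at 0. Aldh1a1 was the only enzyme with a ratio above 0, at 0.38 against a median of -0.25 over all genes, and its quadrants overlapped. The other 4 enzymes had all quadrants below those of vitamin A, which 32.4% of all genes did.

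**Figure D3:**
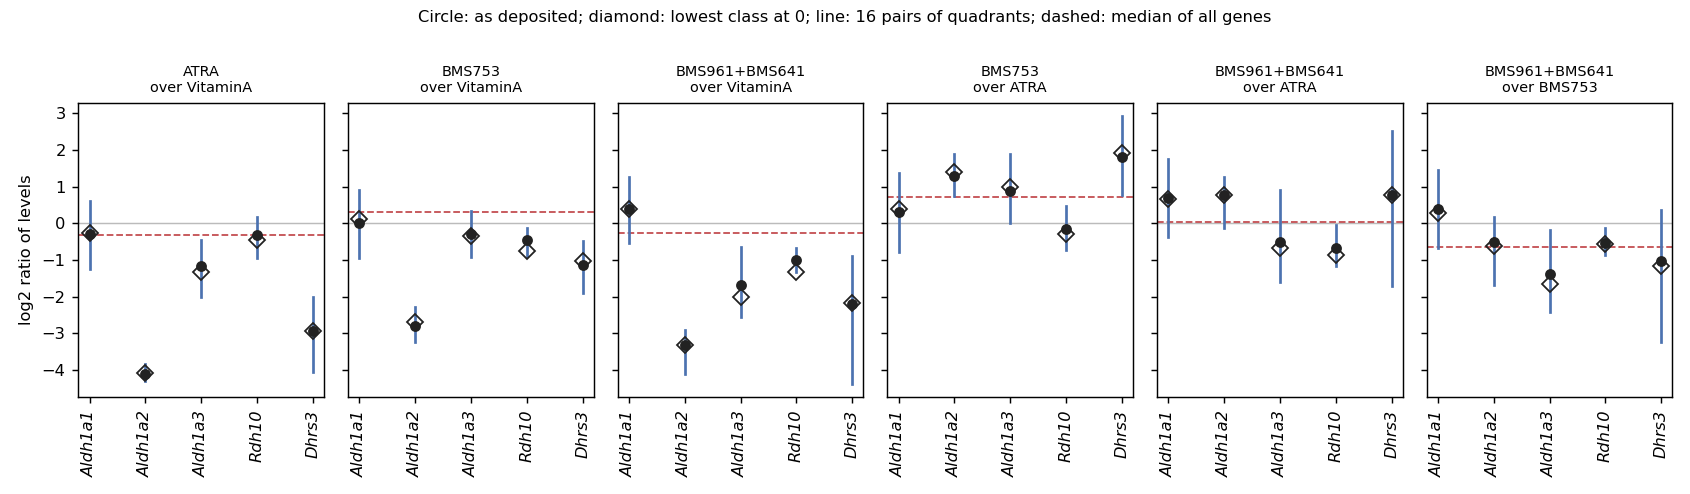
Log2 ratio of levels for each enzyme in the 6 pairs of sections, as deposited (circles) and with the lowest class at 0 (diamonds), with vertical lines over the 16 pairs of quadrants and a dashed line at the median of all genes. Aldh1a2 lies at -4.10, -2.82 and -3.33 in the 3 comparisons with vitamin A, below the dashed line in each.

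ATRA, which binds all RAR subtypes, and the RARα agonist BMS753 were used at the same dose and time. Of the 5 enzymes 2 were at least 2-fold higher with BMS753 than with ATRA and 0 lower, beside 26.4% and 7.39% of the 14902 genes compared. Dhrs3 was 3.49-fold higher (log2 ratio 1.80, quadrant pairs 0.77 to 2.91) and the Aldh1a2 ratio was 1.29 (0.76 to 1.88). The median of all genes was itself 0.71, and Dhrs3 stood at the 94.3rd percentile of all genes compared. After centring on that median Aldh1a2 no longer reached 2-fold. Aldh1a3, at 0.88, also had all BMS753 quadrants above those of ATRA, which 34.9% of genes did, whereas Aldh1a1 at 0.30 and Rdh10 at -0.15 overlapped.

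BMS961+BMS641 was used at a lower dose than ATRA and BMS753, so its values are set beside theirs only as values. Between it and ATRA 0 of the 5 enzymes passed 2-fold in either direction, beside 11.7% of 13732 genes lower and 15.6% higher. The log2 ratios were 0.77 for Aldh1a2, 0.76 for Dhrs3, 0.68 for Aldh1a1, -0.52 for Aldh1a3 and -0.68 for Rdh10, and Rdh10 alone had quadrants that did not overlap, being lower as in 16.1% of genes. Between it and BMS753, Aldh1a3 at -1.39 and Dhrs3 at -1.04 were at least 2-fold lower, beside 26.1% of 14973 genes lower and 8.27% higher. The median of all genes in that pair was -0.64, and after centring neither enzyme passed 2-fold. Aldh1a3 and Rdh10 had all quadrants below those of BMS753, which 31.1% of genes did.

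The order of the ligand sections in Aldh1a2 depended on the measure. By level it was highest with BMS753 and by share of spots it was highest with BMS961+BMS641, the ligand section with the most genes above the lowest class per spot. In spots of like depth, with 3000 to 4500 genes above that class, Aldh1a2 was held by 91.7% of 218 spots with vitamin A, 22.1% of 226 with ATRA, 34% of 144 with BMS753 and 37.6% of 109 with BMS961+BMS641. The levels of Aldh1a2 in those spots were 289, 16.7, 52.2 and 27.9 ppm, so that the gap to vitamin A was narrower with BMS753 than over all spots. Dhrs3 in those spots was held by 28.0%, 7.96%, 27.1% and 9.17%, so that BMS753 and vitamin A were then close by share, at levels of 16.4 and 36.0 ppm.

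Spatial grouping within a section was measured by Moran's I. This index, a measure of how far neighbouring spots share a state, was 0.01 for the presence of Aldh1a2 with vitamin A and 0.07, 0.09 and 0.07 with ATRA, BMS753 and BMS961+BMS641. For Dhrs3 it ran from -0.02 with vitamin A to 0.06 with BMS753. Rdh10 with BMS753 had a value of 0.10 by presence, above that of 96.4% of 882 genes held by a like share of spots. Computed on log2 signal its index was 0.001, at the 29.8th percentile of genes held by at least 1 spot. BMS753 spots that held Rdh10 had a median of 4967.5 genes above the lowest class, against 3157 in those without it. By presence, Aldh1a1 stood at the 84.3rd, 81.9th, 68.8th and 83.9th percentile of genes of like share with vitamin A, ATRA, BMS753 and BMS961+BMS641. Aldh1a2 stood at the 12.8th, 65.4th, 64.3rd and 65.2nd in the same order. Aldh1a2 was held by 92.6% of spots at the edge of the VitaminA section and 94.9% inside it, and by 27.3% and 24.8% with ATRA, so neither section had it at its rim alone. Dhrs3 with vitamin A was held by 27.7% of edge spots and 39.4% of interior spots. Spots that held Aldh1a2 had more genes above the lowest class than those that did not, with medians of 4757 against 3288 with vitamin A and 4562 against 3137 with ATRA, and the part of depth in the maps was not tested. Most VitaminA spots held at least 1 of the 5 enzymes, with 3.26% holding none, whereas 46.2%, 36.2% and 31.2% of spots held none with ATRA, BMS753 and BMS961+BMS641. Since Aldh1a2 alone was held by 94.0% of VitaminA spots, the low share holding none there largely restates that gene. All 5 were held together by 12 spots with vitamin A and by 1, 1 and 2 spots in the ligand sections.

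**Figure D4:**
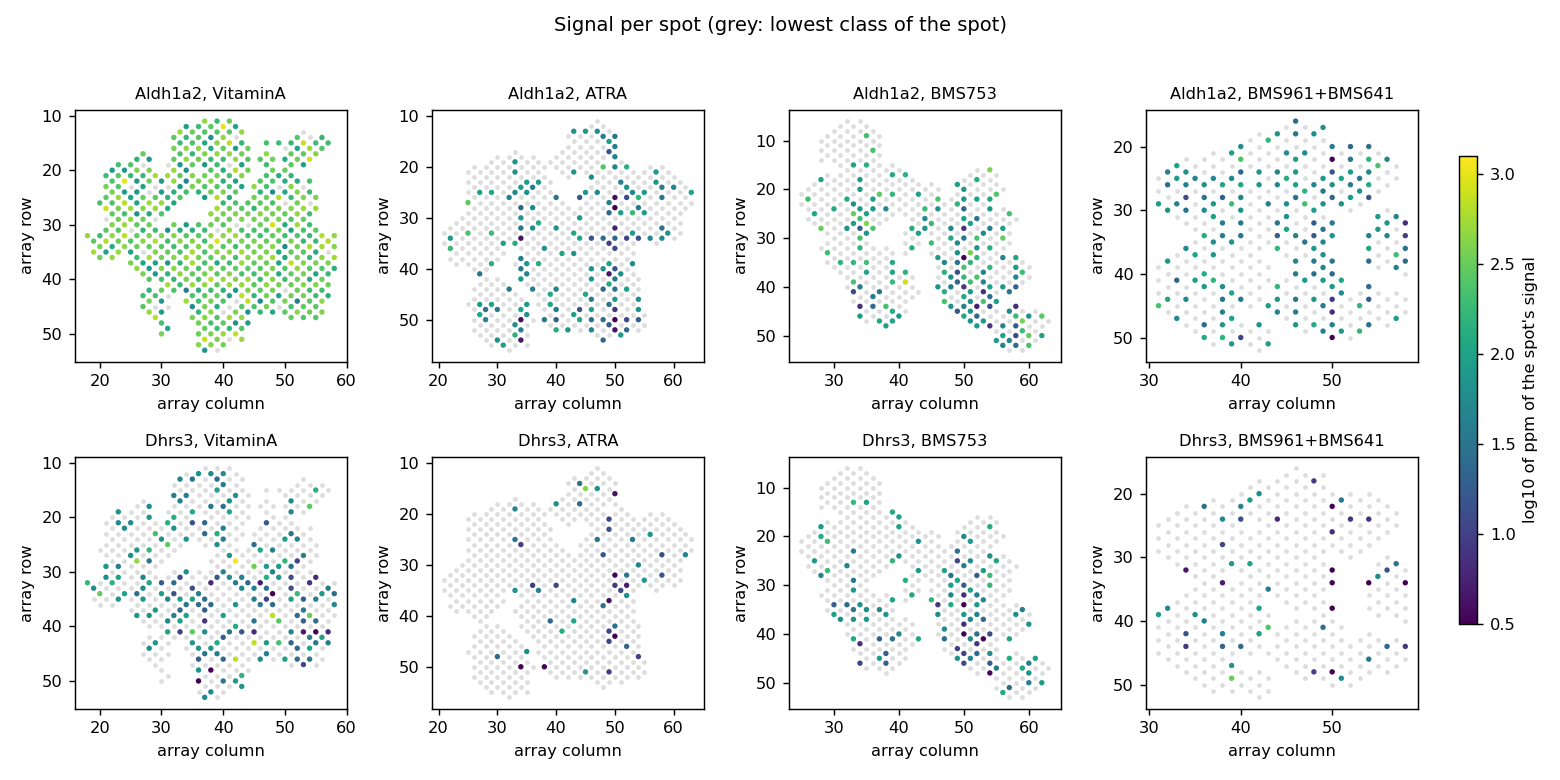
Signal of Aldh1a2 (top) and Dhrs3 (bottom) in each spot by array column and row, coloured by the log10 of ppm of the spot's signal, with grey spots in the lowest class. Aldh1a2 covers 94.0% of VitaminA spots without a rim or patch, and scattered spots in the ligand sections, some of them in a line along array column 50, where more genes stood above the lowest class.

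Other enzymes of retinoid metabolism differed from vitamin A in either direction. A list held 28 such genes, mostly dehydrogenases and reductases, with acyltransferases, carotenoid oxygenases, the isomerase Rpe65 and the retinaldehyde-binding protein gene Rlbp1. Of these, 26 were listed in every pair with vitamin A. With ATRA, 2 of the 12 compared were at least 2-fold lower and 1 was higher, beside 22.9% and 8.60% of all genes, with a median of -0.22 against -0.33 for all genes. With the lowest class at 0, 4 of 12 were lower, beside 31.9% of all genes, and the median was -0.86 against -0.60. With BMS753, 1 of 17 was lower and 7 were higher, beside 10.0% and 17.7%, with a median of 0.80 against 0.31, or 0.40 against 0.14 with the lowest class at 0. With BMS961+BMS641, 3 of 15 were lower and 1 was higher, beside 19.9% and 10.2%, with a median of 0.33 against -0.25, or -0.26 against -0.52 with the lowest class at 0. Bco2, which cleaves carotenoids, was highest with ATRA, at 80.3 ppm against 3.50 ppm with vitamin A. Dhrs4, a reductase of retinaldehyde, had a log2 ratio of 2.51 for BMS753 over vitamin A and of 4.02 for BMS753 over ATRA. Hsd17b6, an enzyme related to retinol dehydrogenases, had ratios of 2.09 and 1.79 in the same comparisons. Rpe65, the retinoid isomerase of the pigment epithelium, had a ratio of 1.18 for BMS961+BMS641 over vitamin A and of 3.27 over ATRA.

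Genes that carry, degrade or sense retinoids were counted in the same way. Of 19 such genes, 5 of 14 compared were at least 2-fold lower and 0 higher with ATRA, beside 22.9% and 8.60% of all genes. The counts were 4 of 15 and 0 with BMS753, beside 10.0% and 17.7%, and 3 of 14 and 1 with BMS961+BMS641, beside 19.9% and 10.2%. Their medians were -0.72, -0.36 and -0.29, against -0.33, 0.31 and -0.25 for all genes. Rbp4, the plasma carrier of retinol, was at 36.7 ppm with vitamin A and at 1.71, 2.10 and 0.54 ppm in the ligand sections. Cyp26b1, which degrades retinoic acid, was at 35.1 ppm with vitamin A and at 16.1, 18.5 and 27.3 ppm with ATRA, BMS753 and BMS961+BMS641, with log2 ratios of -1.07, -0.89 and -0.35. Rarg, the RARγ receptor gene, had ratios of -1.74 with ATRA and -0.95 with BMS961+BMS641. Crabp1, a carrier of retinoic acid inside cells, was high with BMS961+BMS641, with ratios of 4.14 over vitamin A, 3.83 over ATRA and 5.64 over BMS753.

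Markers of several cell types also differed in summed level between the sections. Neuronal markers were found in all sections, with summed levels over 10 genes of 882, 738, 1150 and 1263 ppm. Stmn2, a microtubule regulator of growing neurons, gave 533 ppm of the last sum against 14.3, 12.7 and 40.4 ppm in the other sections, and without it the sums were 868.2, 725, 1109 and 729.5 ppm. Since Aldh1a2 is a gene of the meninges, a list of 15 meningeal and fibroblast markers was summed, which gave 699 ppm with vitamin A and 171, 317 and 165 ppm with ATRA, BMS753 and BMS961+BMS641. With ATRA 5 of the 12 compared were at least 2-fold lower and 1 was higher, with BMS753 2 and 1, and with BMS961+BMS641 4 and 0, beside 22.9% and 8.60%, 10.0% and 17.7%, and 19.9% and 10.2% of all genes. The medians of the list were -0.94, 0.06 and -0.91, against -0.33, 0.31 and -0.25 for all genes. Most of the VitaminA sum came from Col15a1, a basement membrane collagen, at 345 ppm against 30.0, 46.2 and 25.1 ppm, and from Lum, a matrix proteoglycan, at 140 ppm against 12.5, 27.2 and 12.9 ppm. Without these 2 genes the sums were 214, 128, 244 and 127 ppm. Foxc1, a transcription factor that defines the meninges, was low in all sections but highest with vitamin A, at 5.80, 2.69, 2.90 and 2.61 ppm. With the lowest class at 0 its levels were 6.11, 1.55, 1.13 and 1.14 ppm. It was held by 7.25% of VitaminA spots and by 2.19%, 1.28% and 2.47% of spots with ATRA, BMS753 and BMS961+BMS641. By level the main fibrillar collagen gene Col1a1, at 32.4, 21.6, 62.9 and 30.6 ppm, did not follow Aldh1a2. It was held by 39.9% of spots with vitamin A, its highest share, and by 27.7%, 21.3% and 29.6% with ATRA, BMS753 and BMS961+BMS641. Other markers of the list were highest in a ligand section. Zic1 was at 22.7 ppm with ATRA against 7.86 ppm with vitamin A. With BMS753 Ptgds was at 32.2 ppm and Col1a2 at 16.6 ppm, against 5.73 and 9.06 ppm with vitamin A. No marker of the list was at 0 in all spots, and the part of the list in the Aldh1a2 difference was not tested.

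Summed markers of retina and pigment epithelium, tissues with Aldh1a1 and Aldh1a3, were at 476 ppm with vitamin A and 156, 234 and 147 ppm with the ligands. Mitf, a transcription factor of pigment cells, gave most of each sum, at 407, 87.6, 145 and 100.4 ppm, and without it the sums were 69.3, 68.2, 89.4 and 46.1 ppm. Those of midbrain dopaminergic neurons were at 335, 115, 348 and 115 ppm, and without Nr4a2 at 221, 98.4, 305 and 88.5 ppm. The VitaminA and BMS753 sums came in part from different genes, although Lmx1b was high in both, at 74.1 and 108.7 ppm. Nr4a2 was at 113 ppm with vitamin A and 42.7 ppm with BMS753, En1 at 86.8 and 18.4 ppm, and Ddc at 12.9 and 87.8 ppm. Choroid plexus markers summed to 377, 323, 374 and 764 ppm. Lmx1a, a transcription factor also of midbrain dopaminergic precursors, carried the last of these, at 97.5, 83.9, 112 and 467 ppm, and without it the choroid plexus sums were 280.0, 239, 262 and 297 ppm. The part of these cell types in the levels of Aldh1a1 and Aldh1a3 was not tested.

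By the 4 section levels, as distance on the log2 scale over 19783 genes, the genes nearest to Aldh1a2 were Hnf4g at 0.436, Tecta at 0.482 and Oosp1 at 0.586. Hnf4g stood at 380, 19.1, 40.9 and 26.4 ppm, and Tecta at 240.4, 19.9, 34.2 and 28.1 ppm. Oosp1 took part of its likeness from the lowest class, since its distance was 3.26 with that class at 0. Only 19 genes lay within 1 of Aldh1a2 and 56 within 1 of Dhrs3, whose nearest were Fhod1 at 0.460, Serpina1b at 0.481 and Atp6v0a2 at 0.520. The flatter enzymes had many like genes, with 463 within 1 of Aldh1a3, 740 of Rdh10 and 888 of Aldh1a1. Such counts also depend on how many genes lie at a level. With vitamin A the level of Aldh1a2 was at the 98.0th percentile of listed genes and that of Aldh1a1 at the 57.5th. Nearest were Pofut1, Zfp957 and Tmem200a for Aldh1a3, Ptp4a3, Traf3 and Maob for Rdh10, and Map1a, Hyal1 and Gin1 for Aldh1a1. With the lowest class at 0 the distances of the Rdh10 neighbours rose from 0.234, 0.244 and 0.277 to 0.835, 0.809 and 0.598. Those of Tmem200a and Serpina1b rose from 0.315 and 0.481 to 0.613 and 0.684, while Pofut1 and Zfp957 came nearer, at 0.255 and 0.154.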

How the data were processed

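Polyadenylated RNA was captured on barcoded arrays and sequenced as paired ends, per the labels' protocols, with mm9 as genome build, per the submitters' processing notes. Not given in the sources used here are the aligner, the counting rule and how spots were kept. The deposited signal per gene and spot had been quantile normalised by the authors within each section, as its values show: after sorting, any pair of spots in a section differs only by 1 factor. Depth is therefore unknown, and no count model was used. The 4 sections are those of the labels, with 1 per treatment, so no test between treatments was made.

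Levels, shares of spots and log2 ratios with a pseudocount of 1 ppm were computed over all genes with Python 3.11.15, numpy 2.4.6, pandas 2.3.3 and scipy 1.17.1, and drawn with matplotlib 3.10.9. The scripts were tested on simulated data with 200 genes changed. Moran's I used up to 8 neighbours on the grid. The members and all gene lists were chosen with earlier results of these data known. Named were the 5 enzymes, Aldh1a7, the 3 nearest genes of each enzyme and, from the 2 retinoid lists, the 2 highest and 2 lowest ratios of each comparison among genes reaching 20 ppm in at least 1 section of the pair, of which the text gives a selection, while the markers named, among them Foxc1, Col15a1, Lum, Col1a1, Mitf, Lmx1a and Stmn2, were chosen after their values were seen. Alternatives changed the pseudocount, level, scaling, filter, averaging and spots used, and left out each quadrant. Spots of like depth, and leaving out a bright array column and row, were added after seeing the data.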

Additional observations from a re-analysis of the deposited data

How the results depend on the processing

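Over 23 settings per comparison, all 12 enzyme ratios past 2-fold kept their sign wherever a value could be had, while 12 of the other 18 turned sign under some setting. Settings that changed only the pseudocount or the filter could not turn a sign, so they are no check of it. Aldh1a2 over vitamin A ran from -4.84 to -1.84 with ATRA, from -3.34 to -1.40 with BMS753 and from -3.74 to -0.97 with BMS961+BMS641, and Dhrs3 from -3.89 to -1.59, -1.47 to -0.46 and -3.50 to -1.32. The 3 enzymes at least 2-fold lower with ATRA than with vitamin A became 2, without Aldh1a3, with centring, a pseudocount of 10 ppm or without quadrant 2 of ATRA. The 3 lower with BMS961+BMS641 than with vitamin A became 4 in 9 settings, with Rdh10 past 2-fold, and 2 by percent of spots, where Aldh1a2 was at -0.97. The count of enzymes at least 2-fold lower with BMS753 than with vitamin A, 2 as reported, was 1 with spot sums, percent of spots, a pseudocount of 10 ppm or the class index, and 1 to 2 with a quadrant left out (1 without quadrant 1 of BMS753). The 2 enzymes higher with BMS753 than with ATRA became 1 with a filter of 20 ppm, centring, no scaling or percent of spots, and 0 with a pseudocount of 10 ppm. The 2 lower with BMS961+BMS641 than with BMS753 became 1 with a filter of 20 ppm or without the bright column and row, 0 with centring, no scaling, percent of spots or a pseudocount of 10 ppm, and 1 to 2 with a quadrant left out (1 without quadrant 2 or 4 of BMS961+BMS641, or 3 or 4 of BMS753), and the enzymes higher in that pair, 0 as reported, became 1 with centring or no scaling. The 0 higher with BMS961+BMS641 than with ATRA became 1 with interior spots or a trimmed mean, 2 with no scaling, and 0 to 1 with a quadrant left out (1 without quadrant 2 of either). The causes were not tested. The split of all genes into at least 2-fold lower and higher moved with no scaling from 22.9% and 8.60% to 34.8% and 7.16% for ATRA over vitamin A, from 10.0% and 17.7% to 16.7% and 4.72% for BMS753 over vitamin A, and from 19.9% and 10.2% to 8.85% and 19.2% for BMS961+BMS641 over vitamin A. With the lowest class at 0 the shares lower were 31.9%, 12.6% and 29.0%. No paired analysis was possible because each treatment had 1 section. With unknown depth, a spot without a gene may only be shallow.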

Other observations

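The genome holds other aldehyde dehydrogenases, which act mostly on aldehydes of amino acid, lipid and folate metabolism. Of 14 compared by the same rule, 13 had a ratio in each comparison with vitamin A. With ATRA 2 were at least 2-fold lower and 1 higher, with BMS753 2 and 3, and with BMS961+BMS641 2 and 1, beside 22.9% and 8.60%, 10.0% and 17.7%, and 19.9% and 10.2% of all genes. Their medians were -0.25, 0.52 and -0.45, against -0.33, 0.31 and -0.25 for all genes. These genes were picked after their values were seen. Aldh2, the mitochondrial enzyme that clears acetaldehyde, was at 29.1, 24.3, 24.9 and 11.5 ppm in the VitaminA, ATRA, BMS753 and BMS961+BMS641 sections. Aldh4a1, of proline breakdown, was at 26.5, 27.8, 96.1 and 18.8 ppm, highest with BMS753. Aldh7a1, of lysine breakdown, was at 8.80, 28.7, 11.1 and 4.47 ppm, highest with ATRA. Aldh9a1, which oxidises aminoaldehydes, was at 14.6, 3.61, 5.61 and 2.95 ppm, and Aldh3a1 was at 40.1, 7.78, 10.6 and 21.4 ppm, both highest with vitamin A as Aldh1a2 was.

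In the 3 ligand sections spots along array column 50 had more genes above the lowest class than those of any other column, with medians of 7683.5, 7301 and 9957.5 genes, while the same column in the VitaminA section had 2876.5. Aldh1a2 was held by 80.0%, 86.7% and 100.0% of the 20, 15 and 14 spots of that column with ATRA, BMS753 and BMS961+BMS641, and by 81.2% of 16 with vitamin A. Without that column and row 34 the log2 ratios of Aldh1a2 over vitamin A were -4.13, -2.81 and -3.35, and those of Dhrs3 were -2.86, -1.14 and -2.08. The share of spots with Aldh1a2 outside both lines was 94.2% with vitamin A and 22.9%, 33.2% and 44.0% with the ligands.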
